A study of Mus musculus with 24 samples.

Results

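The genes described here are 40 members of the integrated stress response that runs through the transcription factor ATF4, listed by name and role: 11 regulators, 9 enzymes of amino acid synthesis, 8 amino acid transporters, 8 cytosolic aminoacyl-tRNA synthetases and 4 genes listed as secreted factors. They were taken by symbol from the expression tables of 4 mouse tumour cell lines, in which 34866 genes were listed in at least 1 table. All 40 had an entry in the LLC1 and AKR tables, 39 in that of MC38 and 38 in that of Hepa1-6.

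Kinases that sense unfolded protein, missing amino acids, haem shortage or double-stranded RNA phosphorylate the translation factor eIF2, which slows most protein synthesis while the Atf4 mRNA is translated more. ATF4 then pairs with C/EBP and other leucine-zipper proteins on composite DNA elements and switches on genes that make, import and charge amino acids, together with feedback genes that restore eIF2. In tumour cells the pathway is known for keeping cells alive when nutrients are scarce and, when it is prolonged, for promoting cell death through CHOP, the product of Ddit3.

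Bulk RNA-seq of cultured cells was used to compare, within each line, cells given a single guide RNA against B2m (sgB2m) with cells given a non-targeting guide (sgNT). The lines were MC38, labelled colon adenocarcinoma, LLC1 (Lewis lung carcinoma), AKR (an esophageal line) and Hepa1-6 (a liver cancer line), all grown in DMEM with serum, with 3 libraries for each line and guide and 24 libraries in all. The labels name no clone or pool, no separate cultures and no sequencing batch, so p-values measure the spread between 3 libraries, which may be technical. B2m codes for beta-2-microglobulin, the small subunit that MHC class I needs to reach the cell surface.

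Reads counted per library ranged between 25.0 and 49.7 M. The deposited values were log2 normalised counts, scaled within each line, so levels in different lines are on separate scales. Per-library normalised counts of B2m were 9721, 9507 and 9157 in MC38 sgB2m and 31028, 32813 and 33414 in MC38 sgNT. They were 4993, 5180 and 4963 in LLC1 sgB2m and 16771, 16459 and 16455 in LLC1 sgNT. In AKR they were 4694, 4096 and 4137 in sgB2m and 12476, 13147 and 12827 in sgNT, and in Hepa1-6 2599, 2672 and 2451 in sgB2m and 6670, 6570 and 6495 in sgNT. The edited gene was lower in every sgB2m library than in every sgNT library of its line, as labelled. A count over the whole transcript does not show whether the remaining mRNA is edited. Hepatocyte markers were high in Hepa1-6, where 5 of 6 reached a mean log2 value of 6. The labelled origin of the other lines was weakly marked, and some of their markers were higher in another line. Colon markers reached that level for 1 of 5 in MC38, against 4 of 5 in Hepa1-6 (Cdh17 the highest, at 14.6) and 3 of 5 in AKR. Squamous markers did so for 2 of 5 in both AKR and MC38, and their sum was lower in AKR (21.5 to 23.3 RPM, reads of a gene per 1e6 counted reads, in sgB2m and 19.4 to 19.6 in sgNT) than in MC38 (55.0 to 56.4 in sgB2m and 61.5 to 67.1 in sgNT). In LLC1 1 of 4 lung markers reached it. Summed leukocyte markers (Ptprc, Cd3e, Lyz2 and Itgam) stayed between 0.0 and 5.84 RPM in sgB2m libraries and between 0.0 and 4.77 in sgNT libraries of the 4 lines. Of these markers only Lyz2, in LLC1, reached a mean log2 value of 6 (7.0). The LLC1 leukocyte sum was 4.16 to 5.84 RPM in sgB2m and 3.98 to 4.77 in sgNT. Of 20 marker sums (5 lists in 4 lines), 10 did not overlap between guides, 6 of them higher in sgB2m and 4 higher in sgNT. The share of all genes without overlap was not counted, so these sums are not shown to differ more than genes in general. In AKR the sum of the 5 colon markers was 29.6 to 34.9 RPM in sgB2m and 14.6 to 18.4 in sgNT. That of the 6 hepatocyte markers in AKR, with Alb, Ttr, Hnf4a and Fgb at 0 or not listed, was 7.30 to 7.82 in sgB2m and 2.52 to 4.32 in sgNT. In LLC1 the 4 lung markers, with Nkx2-1 at 0 or not listed, summed to 5.59 to 6.10 in sgB2m and 9.34 to 10.3 in sgNT. Their part in the results was not tested. In bulk RNA a change in the share of cells in a given state and a change per cell cannot be told apart.

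Short promoter stretches are shown first, for members whose windows held a match to the element through which ATF4 is known to bind. The motif searched was TGATGNAA, the core of the C/EBP-ATF response element, on both strands of RefSeq promoter windows (GRCm38.p6) that run from 250 bases before to 50 bases after each transcript start. Of the 40 genes, 32 had a window and 14 of these held the motif. Counted over windows, 14 of 38 held it (36.8%), against 3.97% of all 32851 windows of the same length. The members were listed as ATF4 response genes, so this contrast is not independent of how they were chosen. Sites of 13 of the 14 genes are shown. Each line below gives 30 bases 5′ to 3′ on the strand that reads TGATGNAA, with the motif in capitals and its position in brackets. For regulators and synthesis genes these were:
Atf3 (chr1:191183436-191183443): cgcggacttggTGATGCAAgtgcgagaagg
Trib3 (chr2:152344039-152344046): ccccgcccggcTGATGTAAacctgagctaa
Chac1 (chr2:119351049-119351056): cctggcaggagTGATGCAAcggcagggaag
Nupr1 (chr7:126625573-126625580): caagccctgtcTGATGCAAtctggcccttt
Asns (chr6:7693225-7693232): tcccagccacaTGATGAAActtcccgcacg
Pck2 (chr14:55540163-55540170): ctgtaagatacTGATGTAActttgaaggct
Pycr1 (chr11:120643844-120643851): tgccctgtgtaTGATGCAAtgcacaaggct
For transporters, synthetases and the genes listed as secreted factors these were:
Slc7a11 first site (chr3:50443672-50443679): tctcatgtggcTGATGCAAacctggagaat
Slc7a11 second site (chr3:50443653-50443660): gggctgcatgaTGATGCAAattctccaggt
Slc1a4 (chr11:20332710-20332717): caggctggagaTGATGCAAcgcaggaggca
Gars (chr6:55037971-55037978): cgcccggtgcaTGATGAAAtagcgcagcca
Iars (chr13:49682137-49682144): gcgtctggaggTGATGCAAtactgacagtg
Vldlr (chr19:27216820-27216827): gctaggagcgcTGATGCAActattgctgct
Fgf21 (chr7:45615622-45615629): gcctggacggaTGATGCAAtgggggggtct

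The motif of Asns began 23 bases before the start and lay on the strand of the gene, and the pair in Slc7a11 faced each other on opposite strands. The windows of Chac1 and Trib3 are printed whole because these genes recur in every comparison below. They are given 5′ to 3′ on the gene's strand, where the motif reads as its reverse complement, in capitals. The Chac1 window covers chr2:119350992-119351291 (plus strand), and the Trib3 window covers chr2:152344011-152344310 (minus strand).
Chac1 window: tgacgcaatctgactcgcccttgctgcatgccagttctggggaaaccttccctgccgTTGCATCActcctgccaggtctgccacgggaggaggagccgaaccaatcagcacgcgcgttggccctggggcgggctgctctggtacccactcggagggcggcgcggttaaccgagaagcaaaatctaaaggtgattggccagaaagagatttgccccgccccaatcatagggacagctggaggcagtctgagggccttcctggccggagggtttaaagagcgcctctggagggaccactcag
Trib3 window: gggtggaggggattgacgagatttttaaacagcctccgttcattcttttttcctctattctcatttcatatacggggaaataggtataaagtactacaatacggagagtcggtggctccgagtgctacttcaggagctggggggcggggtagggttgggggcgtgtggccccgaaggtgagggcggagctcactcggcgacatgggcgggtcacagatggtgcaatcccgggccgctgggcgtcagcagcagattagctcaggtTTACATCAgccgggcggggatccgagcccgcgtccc
In Chac1 the motif began 193 bases before the start, and in Trib3 14 bases after it. A match describes letters in the window and shows neither a bound site nor a cause. The plot of motif positions shows how the matches were spread over the windows.

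**Figure D1:**
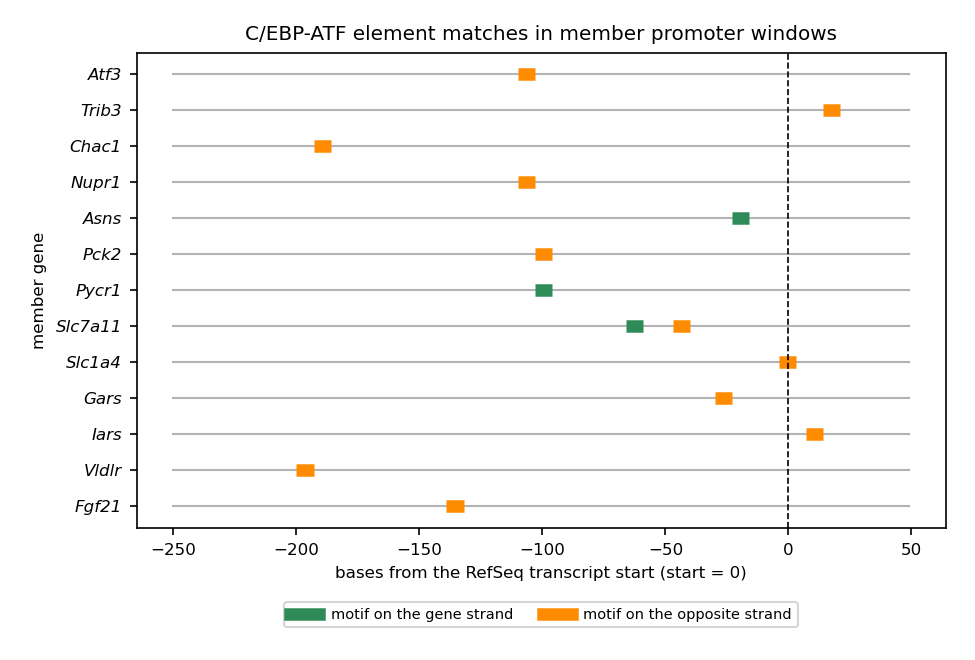
Positions of TGATGNAA matches in the promoter windows of 13 of the 14 genes that held one, in bases from the RefSeq transcript start. Grey lines are the windows, and coloured blocks are matches on the strand of the gene or on the opposite strand. Asns, Pycr1 and 1 of the Slc7a11 sites lie on the strand of the gene.

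The direction of the ATF4 genes differed between lines. They were mostly higher in sgB2m cells of Hepa1-6 and mostly lower in sgB2m cells of LLC1 and AKR. In MC38 most were not called, and more of the called ones were higher than lower. In Hepa1-6, 30 of 37 tested members were higher and 3 were lower in sgB2m, where 18.6% and 19.2% of all tested genes were called higher and lower. In LLC1, 2 of 39 were higher and 30 were lower, against 20.7% and 21.8% of all tested genes. In AKR, 1 of 39 was higher and 33 were lower, against 21.0% and 21.9%. In MC38, 12 of 38 were higher and 3 were lower, against 15.9% and 15.8%. These shares of all tested genes also apply to the counts by role and by related list below. A gene was tested in a line when its log2 value reached 3.5 in at least 3 of the 6 libraries, and called at a limma p-value under 0.05 after Benjamini-Hochberg adjustment over all tested genes of the line.

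The median log2 fold change of the tested members, sgB2m minus sgNT, was 0.29 in Hepa1-6, -0.40 in LLC1, -0.40 in AKR and 0.09 in MC38, where the median over all tested genes was -0.01, 0.01, 0.01 and 0.00 in the same order. Most changes were small. Called and at least 2-fold changed were 6 members higher and 1 lower in Hepa1-6 (2.74% and 1.12% of all tested genes), and 0 higher and 5 lower in LLC1 (2.17% and 2.05%). They were 0 higher and 3 lower in AKR (2.75% and 2.35%), and 1 higher and 0 lower in MC38 (3.47% and 2.45%). Of all 40 genes, 32 were called higher in at least 1 line and lower in at least 1 other. None was called higher in all 4 lines, none was called lower in all 4, and each of the 40 was called in at least 1 line.

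**Figure D2:**
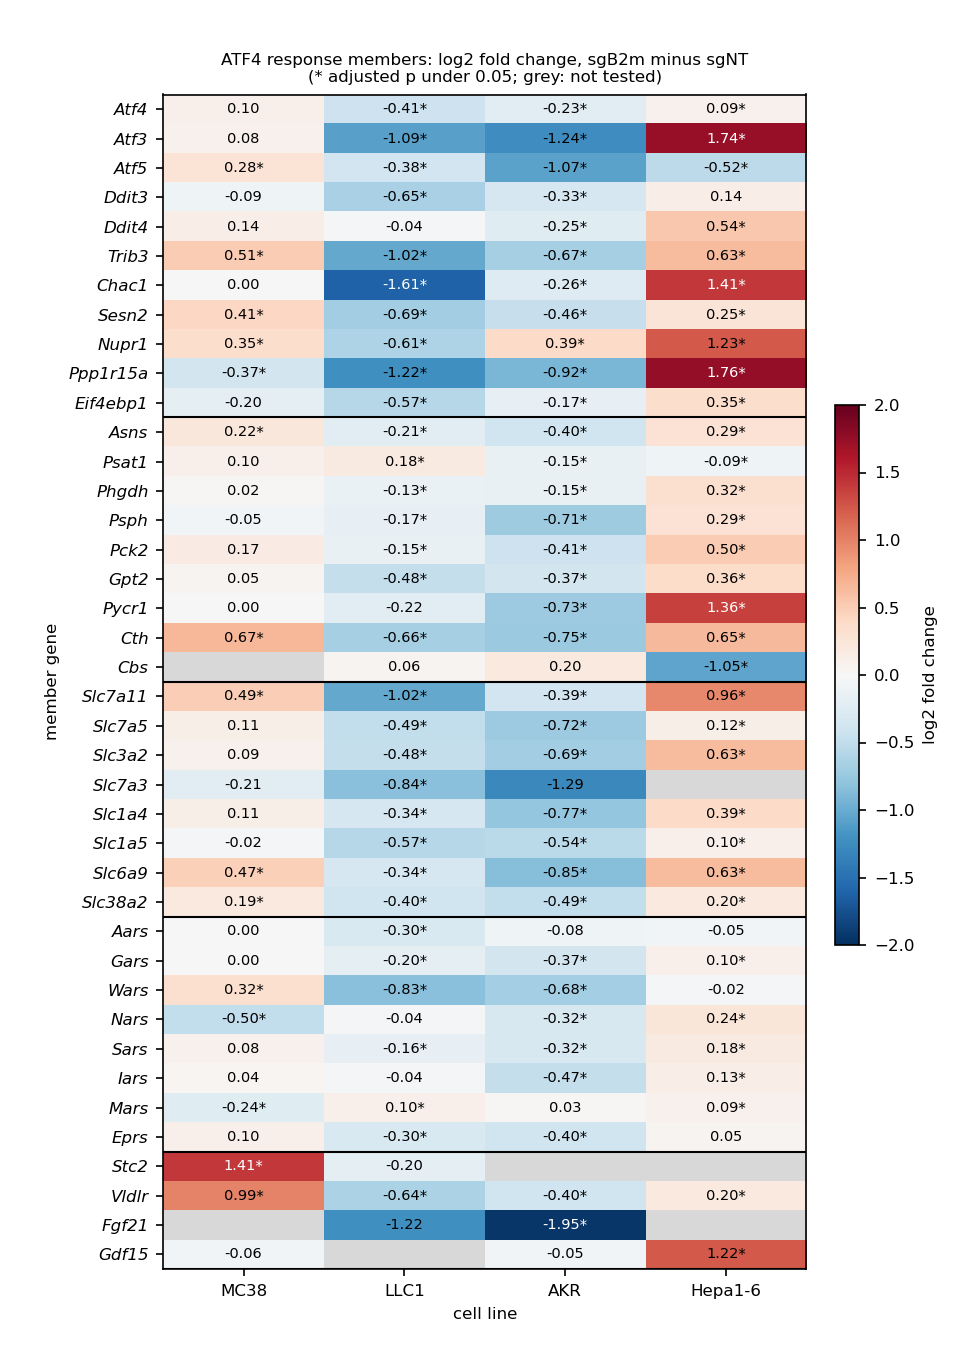
Log2 fold changes (sgB2m minus sgNT) of the 40 genes, in rows by role, in the 4 lines, in columns. Stars mark an adjusted p under 0.05 and grey cells were not tested. The LLC1 and AKR columns are mostly blue (30 and 33 genes lower in sgB2m) and the Hepa1-6 column mostly red (30 higher).

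Among the regulators, Atf4 itself, which encodes the factor, moved little at the RNA level. Its normalised counts in LLC1 were 8102, 8078 and 7975 in sgB2m and 10730, 10830 and 10617 in sgNT. In AKR they were 21241, 19208 and 19555 in sgB2m and 23147, 23961 and 23265 in sgNT. The groups did not overlap in either line, and Atf4 fell 1.33-fold in LLC1 (-0.41 ± 0.028, SE, adjusted p = 3.34e-08) and 1.17-fold in AKR (-0.23 ± 0.043, adjusted p = 0.0013). In Hepa1-6 the counts were 13234, 13845 and 13906 in sgB2m and 12704, 12722 and 13092 in sgNT, a log2 fold change of 0.09 ± 0.027 (adjusted p = 0.0159). The Hepa1-6 call of Atf4 ended under 6 of 15 other settings, among them without sgB2m replicate 2 (adjusted p = 0.05), without sgB2m replicate 3 (0.0579), without sgNT replicate 1 (0.0514) and without sgNT replicate 2 (0.0552). In MC38 the groups overlapped and Atf4 did not pass (0.10 ± 0.054, adjusted p = 0.183). By the limma contrast of the 2 changes, MC38 minus Hepa1-6 was 0.01 ± 0.059 for Atf4 (adjusted p = 0.883). Reads ranged between 28.4 and 49.7 M in MC38 sgNT libraries and between 26.0 and 35.4 M in Hepa1-6 sgNT libraries. The part of this range in the MC38 calls was not tested. ATF4 is controlled mainly at translation, and these libraries measure mRNA.

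Trib3, a pseudokinase that ATF4 and CHOP induce and that binds AKT, was called in all 4 lines. Its normalised counts in Hepa1-6 were 7837, 7590 and 7605 in sgB2m and 4505, 5356 and 5080 in sgNT. In LLC1 they were 1874, 1918 and 2022 in sgB2m and 3991, 3945 and 3837 in sgNT. The groups stood apart in both lines and in opposite directions: Trib3 rose 1.55-fold in Hepa1-6 (0.63 ± 0.049, adjusted p = 6.79e-08) and fell 2.02-fold in LLC1 (-1.02 ± 0.043, adjusted p = 2.92e-10). In AKR the counts were 6678, 6201 and 6420 in sgB2m and 10262, 10244 and 10250 in sgNT, and Trib3 fell 1.59-fold (-0.67 ± 0.04, adjusted p = 5.54e-07). In MC38 they were 1412, 1478 and 1564 in sgB2m and 1000, 1068 and 1064 in sgNT, and Trib3 rose 1.42-fold (0.51 ± 0.069, adjusted p = 0.000437).

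Chac1, a gamma-glutamylcyclotransferase that breaks down glutathione, had the widest difference in change between LLC1 and Hepa1-6 among the 35 members tested in all lines. In LLC1 its normalised counts were 327, 299 and 352 in sgB2m and 983, 1051 and 964 in sgNT, a 3.06-fold decrease (-1.61 ± 0.083, adjusted p = 2.28e-09). In Hepa1-6 they were 1358, 1504 and 1393 in sgB2m and 518, 485 and 604 in sgNT, a 2.65-fold increase (1.41 ± 0.085, adjusted p = 3.45e-09). No sgB2m library overlapped the sgNT libraries in either line. In AKR, Chac1 had 3414, 3386 and 3137 in sgB2m and 3865, 3986 and 4028 in sgNT, and fell 1.20-fold (-0.26 ± 0.047, adjusted p = 0.00124). In MC38 the counts were 2904, 2814 and 2989 in sgB2m and 2785, 2812 and 3126 in sgNT, which overlapped (0.00 ± 0.06, adjusted p = 0.994).

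Ddit3, which encodes CHOP, changed less than Trib3 and Chac1 in LLC1. Its normalised counts were 901, 995 and 1002 in LLC1 sgB2m and 1540, 1592 and 1428 in LLC1 sgNT, a 1.57-fold decrease (-0.65 ± 0.064, adjusted p = 1.37e-06). In AKR they were 3209, 2946 and 3031 in sgB2m and 3874, 3855 and 3818 in sgNT, a 1.26-fold decrease (-0.33 ± 0.046, adjusted p = 0.000191). In Hepa1-6 (1675, 1669 and 1461 in sgB2m, 1402, 1454 and 1503 in sgNT) and MC38 (923, 1167 and 988 in sgB2m, 964, 1155 and 1157 in sgNT) the groups overlapped. Ddit3 did not pass in Hepa1-6 (0.14 ± 0.063, adjusted p = 0.102) or in MC38 (-0.09 ± 0.11, adjusted p = 0.558), and without sgB2m replicate 3 it passed in Hepa1-6 (adjusted p = 0.0177). The span of Ddit3 overlaps, by 2925 bases on the same strand, a second annotated gene of that name (ENSMUSG00000116429), whose log2 values were at most 2.70 in any library. How reads that lie in both were counted is not given in the sources used here, so the values of Ddit3 are uncertain to that extent. It also overlaps Mars, on the opposite strand, by 68 bases.

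Ppp1r15a (GADD34), the phosphatase subunit that removes phosphate from eIF2 and so closes the loop, and Atf3, a stress-induced repressor of the same leucine-zipper family, were the 2 regulators that rose most in Hepa1-6. Normalised counts of Ppp1r15a there were 4271, 4343 and 4452 in sgB2m and 1284, 1289 and 1280 in sgNT, a 3.39-fold increase (1.76 ± 0.044, adjusted p = 9.34e-14). Those of Atf3 were 1384, 1153 and 1228 in sgB2m and 361, 361 and 400 in sgNT, a 3.35-fold increase (1.74 ± 0.088, adjusted p = 4e-10). Both stood clear of the sgNT libraries. In AKR, Atf3 had 2317, 2289 and 2287 in sgB2m and 5267, 5437 and 5543 in sgNT, and fell 2.36-fold (-1.24 ± 0.042, adjusted p = 2.25e-08). In LLC1, Ppp1r15a had 1409, 1321 and 1341 in sgB2m and 2954, 3130 and 3381 in sgNT, and fell 2.32-fold (-1.22 ± 0.054, adjusted p = 4.62e-10). Ppp1r15a also fell in MC38 (-0.37 ± 0.07, adjusted p = 0.00269), with 1386, 1397 and 1417 in sgB2m and 1794, 1688 and 1975 in sgNT. That made it the 1 regulator called lower in MC38, where Trib3, Sesn2, Nupr1 and Atf5 were called higher. The MC38 call of Atf5 (0.28 ± 0.081, adjusted p = 0.0232) ended without sgB2m replicate 3 (0.0923), without sgNT replicate 2 (0.0669) and without the intensity trend (0.112). The mTORC1 inhibitors Ddit4 (REDD1) and Sesn2 rose in Hepa1-6 by 0.54 ± 0.043 and 0.25 ± 0.08 (adjusted p = 8.73e-08 and 0.0222), the Sesn2 call ending without sgB2m replicate 3 (0.0786) and without sgNT replicate 2 (0.0883). Eif4ebp1, a repressor of cap-dependent translation, fell in LLC1 (-0.57 ± 0.056, adjusted p = 1.52e-06) and rose in Hepa1-6 (0.35 ± 0.045, adjusted p = 1.34e-05). Its call as lower in AKR (-0.17 ± 0.057, adjusted p = 0.0361) ended under 8 of 15 other settings. Among them were quantile normalisation (0.231), the replicate block (0.0599) and the fit without sgNT replicate 2 (0.148).

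Exceptions to the direction of a line were few. Nupr1, a small stress-induced chromatin protein, was the 1 member called higher in AKR sgB2m, with 10447, 9570 and 9492 normalised counts in sgB2m and 7591, 7430 and 7502 in sgNT (0.39 ± 0.044, adjusted p = 4.88e-05). Atf5, a leucine-zipper factor translated like ATF4, was the 1 regulator called lower in Hepa1-6 sgB2m, with 2466, 2525 and 2317 in sgB2m and 3463, 3597 and 3385 in sgNT (-0.52 ± 0.046, adjusted p = 2.78e-07). Atf5 fell 2.10-fold in AKR, where its counts were 1647, 1503 and 1543 in sgB2m and 3296, 3219 and 3347 in sgNT. Atf5 overlaps Nup62 and Il4i1 on the other strand and Ppp1r15a overlaps Tulp2. Whether counting used the strand is not given, so reads of such partners may be mixed. By role, 10 of 11 regulators were lower in LLC1 sgB2m, 10 of 11 were lower and 1 was higher in AKR, 9 of 11 were higher and 1 was lower in Hepa1-6, and 4 were higher and 1 was lower in MC38.

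**Figure D3:**
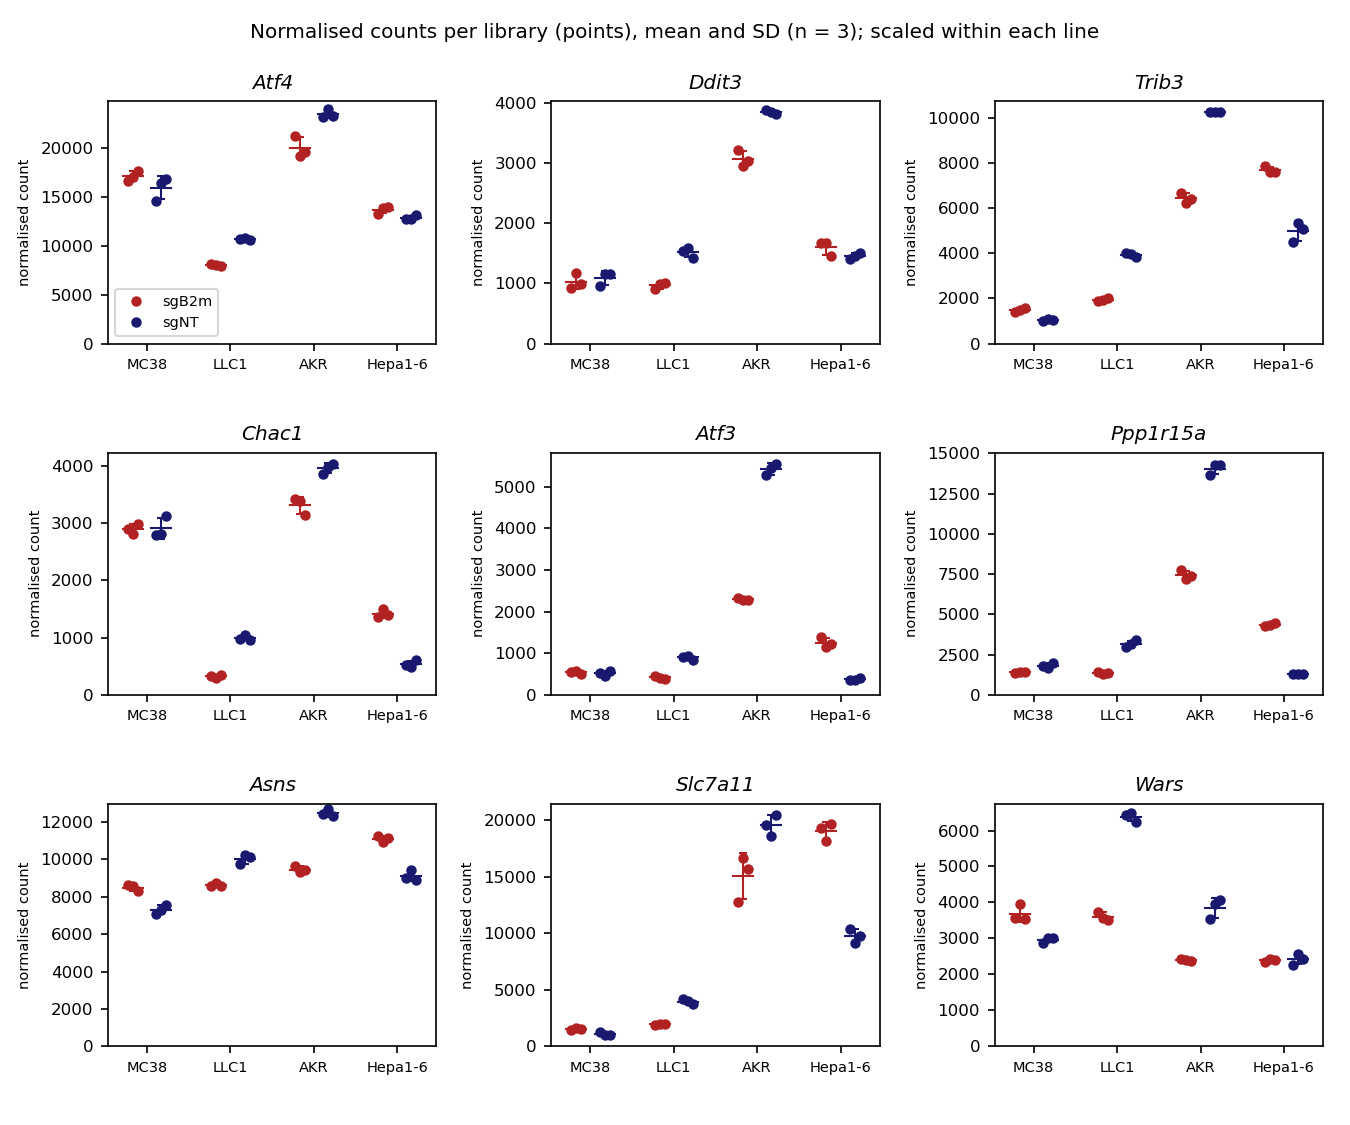
Normalised counts per library (points, linear axes from 0) of 9 members in the 4 lines, sgB2m in red and sgNT in dark blue, with bars for the mean and SD of 3 libraries. Counts are scaled within a line. Chac1, Atf3 and Ppp1r15a lie above sgNT in Hepa1-6 sgB2m and below it in LLC1 sgB2m.

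The 9 enzymes of amino acid synthesis had median log2 fold changes of -0.40 in AKR, -0.17 in LLC1 and 0.32 in Hepa1-6, where the 11 regulators had -0.33, -0.65 and 0.54. Asns, asparagine synthetase, is a standard reporter of the pathway and was called in all 4 lines. Its normalised counts in AKR were 9635, 9302 and 9424 in sgB2m and 12454, 12690 and 12309 in sgNT, a 1.32-fold decrease (-0.40 ± 0.036, adjusted p = 8.78e-06). In LLC1 they were 8599, 8760 and 8583 in sgB2m and 9742, 10235 and 10128 in sgNT (-0.21 ± 0.03, adjusted p = 4.33e-05). In both lines every sgB2m library was below every sgNT library. Asns had 11240, 10937 and 11130 in Hepa1-6 sgB2m and 8991, 9419 and 8910 in Hepa1-6 sgNT (0.29 ± 0.029, adjusted p = 1.19e-06). It had 8605, 8566 and 8289 in MC38 sgB2m and 7100, 7286 and 7547 in MC38 sgNT (0.22 ± 0.042, adjusted p = 0.00351). The order of the groups was the reverse of that in LLC1 and AKR.

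Cth, which makes cysteine from cystathionine, also kept this pattern and changed more. It rose 1.57-fold in Hepa1-6 (1655, 1375 and 1441 in sgB2m, 960, 966 and 908 in sgNT, adjusted p = 3.3e-06) and 1.59-fold in MC38 (316, 392 and 318 in sgB2m, 215, 215 and 211 in sgNT, adjusted p = 0.00329). It fell 1.57-fold in LLC1 (1218, 1336 and 1207 in sgB2m, 1944, 2038 and 1940 in sgNT, adjusted p = 3.18e-07) and 1.68-fold in AKR (797, 748 and 728 in sgB2m, 1268, 1267 and 1279 in sgNT, adjusted p = 5.22e-06). Pycr1, the last step of proline synthesis, rose 2.56-fold in Hepa1-6, with 475, 476 and 453 in sgB2m and 229, 155 and 169 in sgNT (1.36 ± 0.14, adjusted p = 1.77e-06). It fell 1.66-fold in AKR, with 742, 689 and 641 in sgB2m and 1145, 1207 and 1084 in sgNT (-0.73 ± 0.075, adjusted p = 2.33e-05).

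The 3 enzymes of serine synthesis were all lower in AKR sgB2m and were called in both directions in LLC1 and Hepa1-6. Phgdh, its first step, rose in Hepa1-6 (23738, 24176 and 23986 in sgB2m, 18833, 19384 and 19318 in sgNT, 0.32 ± 0.021, adjusted p = 1.07e-08), while Psat1, the second, was lower there (13302, 12971 and 12819 in sgB2m, 13772, 14027 and 13688 in sgNT, -0.09 ± 0.025, adjusted p = 0.0129). Phgdh was lower in LLC1 (-0.13 ± 0.028, adjusted p = 0.00169) and AKR (-0.15 ± 0.037, adjusted p = 0.00861). Psat1 was higher in LLC1 sgB2m, with 13051, 13124 and 12893 in sgB2m and 11396, 11620 and 11488 in sgNT (0.18 ± 0.026, adjusted p = 6.36e-05), and fell in AKR (-0.15 ± 0.033, adjusted p = 0.00478). Psph, the last step, fell by 0.71 on the log2 scale in AKR (2331, 2239 and 2062 in sgB2m, 3659, 3739 and 3442 in sgNT, adjusted p = 4.44e-06). Psph was lower in LLC1 too (-0.17 ± 0.051, adjusted p = 0.013) and higher in Hepa1-6 (0.29 ± 0.057, adjusted p = 0.000851). Under quantile normalisation in AKR, Psat1 and Phgdh no longer passed (-0.02 each, adjusted p = 0.627 for Psat1 and 0.626 for Phgdh). Psat1 in Hepa1-6 no longer passed without sgNT replicate 2 (adjusted p = 0.0574). The LLC1 call of Psph ended without sgB2m replicate 2 (0.0515) and without sgNT replicate 3 (0.0539). That of Phgdh in LLC1 ended under quantile normalisation (0.0863) and without the intensity trend (0.0529).

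Gpt2, the mitochondrial alanine aminotransferase, fell in LLC1 (-0.48 ± 0.039) and AKR (-0.37 ± 0.043) and rose in Hepa1-6 (0.36 ± 0.031), with adjusted p of at most 5.52e-05. Pck2, the mitochondrial PEP carboxykinase, fell in AKR (-0.41 ± 0.04, adjusted p = 1.84e-05) and LLC1 (-0.15 ± 0.04, adjusted p = 0.00671, and 0.0566 without the intensity trend) and rose in Hepa1-6 (0.50 ± 0.044, adjusted p = 2.39e-07). Cbs, the enzyme before Cth, was weakly expressed: it had 48.6, 28.4 and 44.0 normalised counts in Hepa1-6 sgB2m and 76.4, 89.6 and 82.6 in Hepa1-6 sgNT (-1.05 ± 0.27, adjusted p = 0.00603), did not pass in LLC1 or AKR, and was below the filter in MC38. By role, 6 of 9 synthesis genes were lower and 1 was higher in LLC1 sgB2m, 8 of 9 were lower in AKR, 7 were higher and 2 were lower of 9 in Hepa1-6, and 2 of 8 were higher in MC38.

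Amino acid transporters were called in 1 direction within each line. All 8 were lower in LLC1 sgB2m, 7 of 8 in AKR sgB2m, and all 7 that were tested were higher in Hepa1-6 sgB2m, while 3 of 8 were higher in MC38 sgB2m. Slc7a11, which imports cystine in exchange for glutamate, had 19282, 18161 and 19669 normalised counts in Hepa1-6 sgB2m and 10365, 9179 and 9758 in Hepa1-6 sgNT (1.95-fold, 0.96 ± 0.039, adjusted p = 3.22e-11). In LLC1 it had 1907, 1983 and 1955 in sgB2m and 4138, 3973 and 3724 in sgNT, a 2.02-fold decrease (-1.02 ± 0.046, adjusted p = 5.45e-10). The libraries of the groups did not overlap in either line. In AKR it had 12756, 16645 and 15713 in sgB2m and 19605, 18603 and 20436 in sgNT (-0.39 ± 0.082, adjusted p = 0.00292), and the value was -0.25 under quantile normalisation. In MC38 it had 1416, 1593 and 1513 in sgB2m and 1304, 979 and 960 in sgNT (0.49 ± 0.11, adjusted p = 0.00842), and the call ended without the intensity trend (adjusted p = 0.0601). Slc7a11 shares bases with 3 processed pseudogenes and an antisense gene.

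Slc3a2, the heavy chain that carries both Slc7a11 and Slc7a5 to the membrane, had 8666, 8345 and 8358 in Hepa1-6 sgB2m and 5496, 5579 and 5370 in Hepa1-6 sgNT (0.63 ± 0.031, adjusted p = 3.76e-10). It had 11271, 10765 and 10808 in AKR sgB2m and 17421, 17519 and 17858 in AKR sgNT (-0.69 ± 0.036, adjusted p = 2.55e-07). Slc7a5 (LAT1), which imports leucine and other large neutral amino acids, fell in AKR, with 10190, 10259 and 10313 in sgB2m and 16929, 16900 and 16695 in sgNT (-0.72 ± 0.033, adjusted p = 1.31e-07), and rose by 0.12 ± 0.029 in Hepa1-6 (adjusted p = 0.00327, and 0.0635 without the intensity trend). Slc6a9, the glycine transporter GLYT1, was called in all 4 lines: 0.63 ± 0.054 in Hepa1-6, 0.47 ± 0.052 in MC38, -0.34 ± 0.055 in LLC1 and -0.85 ± 0.055 in AKR, with adjusted p of at most 0.000179. The glycine transporter's groups did not overlap in any line. It overlaps Ccdc24 and B4galt2 on the other strand. Slc7a5 overlaps the protein-coding gene Gm20388 by 26545 bases, also on the other strand.

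Slc7a3, a cationic amino acid transporter, was called in LLC1 alone of the 3 lines in which it was tested. It had 612, 632 and 563 normalised counts in LLC1 sgB2m and 1118, 999 and 1126 in LLC1 sgNT, a 1.79-fold decrease (-0.84 ± 0.074, adjusted p = 4.87e-07). In AKR its 3.98, 23.5 and 19.8 in sgB2m overlapped the 45.2, 19.5 and 38.5 in sgNT (-1.29 ± 0.59, adjusted p = 0.0999), on 48 and 101 reads. In Hepa1-6 it was below the filter, on 8 reads in sgB2m and 38 in sgNT. The neutral amino acid exchangers Slc1a4 and Slc1a5 and the glutamine carrier Slc38a2 fell in LLC1 (-0.34 to -0.57) and AKR (-0.49 to -0.77) and rose in Hepa1-6 (0.10 to 0.39). The Slc1a5 call in Hepa1-6 ended under 5 of 15 other settings, among them without sgB2m replicate 1 (adjusted p = 0.107), without sgNT replicate 1 (0.0516) and without sgNT replicate 2 (0.0859). The MC38 call of Slc38a2 (0.19 ± 0.045) ended without sgB2m replicate 3 (adjusted p = 0.0523), without sgNT replicate 2 (0.0566) and without the intensity trend (0.0926). It also ended with the chromosome median taken off (log2 fold change 0.10, adjusted p = 0.14).

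The aminoacyl-tRNA synthetases, which join amino acids to their tRNAs, moved by small amounts. Their median log2 fold change was 0.09 in Hepa1-6, -0.18 in LLC1, -0.35 in AKR and 0.02 in MC38. By count, 5 of 8 were lower and 1 was higher in LLC1, 6 were lower in AKR, 5 were higher in Hepa1-6, and 1 was higher and 2 were lower in MC38. In MC38 that was 12.5% higher and 25.0% lower, near the 15.9% and 15.8% of all tested genes. Wars, for tryptophan, changed most in LLC1 and AKR. It had 3747, 3566 and 3500 normalised counts in LLC1 sgB2m and 6433, 6500 and 6236 in LLC1 sgNT, a 1.77-fold decrease (-0.83 ± 0.037, adjusted p = 5.11e-10). It had 2420, 2386 and 2381 in AKR sgB2m and 3542, 3944 and 4078 in AKR sgNT (-0.68 ± 0.056, adjusted p = 5.04e-06). The groups did not overlap in these lines. In MC38 Wars had 3575, 3959 and 3540 in sgB2m and 2878, 3001 and 2999 in sgNT (0.32 ± 0.057, adjusted p = 0.00225). In Hepa1-6 the groups overlapped (-0.02 ± 0.05, adjusted p = 0.819).

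Nars, for asparagine, had 15489, 15069 and 15116 normalised counts in MC38 sgB2m and 21289, 21860 and 21599 in MC38 sgNT (-0.50 ± 0.035, adjusted p = 5.45e-06). It lies on chromosome 18, where the median over 437 tested genes was -0.21 in MC38, and its change with that median taken off was -0.29. In Hepa1-6 Nars had 22072, 21857 and 21800 in sgB2m and 18366, 18627 and 18798 in sgNT, and rose (0.24 ± 0.021, adjusted p = 2.89e-07). Mars, for methionine, was lower in MC38 sgB2m, with 4360, 4274 and 4325 in sgB2m and 5134, 4989 and 5176 in sgNT (-0.24 ± 0.043, adjusted p = 0.00219). On chromosome 10 the MC38 median was -0.12, and the Mars call ended with it taken off (-0.12, adjusted p = 0.0554). The call of Mars as higher in LLC1 (0.10 ± 0.039, adjusted p = 0.0488) ended in 9 of 15 other settings, with adjusted p between 0.0103 and 0.441 over the 15, among them without sgB2m replicates 2 (0.157) and 3 (0.0709) and without sgNT replicates 2 (0.111) and 3 (0.168). In Hepa1-6 (0.09 ± 0.034, adjusted p = 0.0485) it also ended in 9 of 15, with adjusted p between 0.0212 and 0.215.

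Of the remaining synthetases, Aars, for alanine, fell in LLC1 (-0.30 ± 0.027, adjusted p = 6.51e-07) and did not pass in the other lines. Aars shares 1326 bases on its own strand with Exosc6, and how reads in both were counted is not given. Iars, for isoleucine, fell in AKR (-0.47 ± 0.045, adjusted p = 1.36e-05), with 9763, 10417 and 10598 in sgB2m and 14060, 13772 and 14904 in sgNT. Eprs, for glutamate and proline, fell in LLC1 (-0.30 ± 0.027, adjusted p = 5.67e-07) and AKR (-0.40 ± 0.037, adjusted p = 1.08e-05). Gars and Sars, for glycine and serine, fell in LLC1 and AKR (-0.16 to -0.37) and rose in Hepa1-6 (0.10 and 0.18), with adjusted p of at most 0.00347. Without the intensity trend the Hepa1-6 call of Gars ended (adjusted p = 0.114).

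Of the 4 genes listed as secreted factors, 3 encode secreted proteins and Vldlr encodes a lipoprotein receptor of the cell surface. Gdf15, a stress hormone, had 1835, 1839 and 1717 normalised counts in Hepa1-6 sgB2m and 802, 733 and 783 in Hepa1-6 sgNT, a 2.32-fold increase (1.22 ± 0.063, adjusted p = 5.72e-10). In AKR it was abundant and the groups overlapped, with 6315, 5875 and 6351 in sgB2m and 6369, 6213 and 6643 in sgNT (-0.05 ± 0.046, adjusted p = 0.386). In MC38 it also overlapped (-0.06 ± 0.33, adjusted p = 0.913). In LLC1 it had 0 reads in each sgB2m library and 31 reads over the 3 sgNT libraries, 1 of which had 0, and was below the filter. A count of 0 allows up to 3 reads in a library.

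Fgf21, a metabolic hormone, gave the lowest value of any member. In AKR it had 249, 238 and 201 normalised counts in sgB2m and 879, 844 and 930 in sgNT, a 3.86-fold decrease (-1.95 ± 0.098, adjusted p = 1.99e-07). In LLC1 it had 21 reads in sgB2m and 45 in sgNT and did not pass (-1.22 ± 0.55, adjusted p = 0.0887). It had no entry in MC38 or Hepa1-6. Stc2, a glycoprotein hormone, gave the largest change in MC38, with 1355, 1237 and 1282 in sgB2m and 522, 465 and 465 in sgNT, a 2.67-fold increase (1.41 ± 0.083, adjusted p = 1.79e-06). It did not pass in LLC1 (-0.20 ± 0.22, adjusted p = 0.485), was below the filter in AKR and had no entry in Hepa1-6.

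Vldlr was called in all 4 lines. It had 3152, 3150 and 3305 normalised counts in MC38 sgB2m and 1745, 1542 and 1559 in MC38 sgNT, a 1.98-fold increase (0.99 ± 0.063, adjusted p = 3.38e-06). In Hepa1-6 it had 3405, 3572 and 3531 in sgB2m and 3087, 3029 and 3060 in sgNT (0.20 ± 0.039, adjusted p = 0.000999). It had 711, 623 and 751 in LLC1 sgB2m and 1071, 1082 and 1094 in LLC1 sgNT (-0.64 ± 0.074, adjusted p = 7e-06), and -0.40 ± 0.051 in AKR (adjusted p = 0.000106). Its order of groups was thus the same as that of Asns, Trib3 and Cth in each line.

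The differences between lines were tested as such, in 1 limma model of all 24 libraries with a line by guide interaction, over the 12674 genes tested in all lines. All 35 members tested in all lines had an interaction adjusted p under 0.05, where 69.8% of all those genes did. The lowest was that of Ppp1r15a (adjusted p = 2.67e-19), and the highest was that of Ddit3 (adjusted p = 1.17e-05). Between pairs of lines, with adjustment over genes and the 6 pairs together, 32 of the 35 members had a lower fold change in LLC1 than in Hepa1-6 and 1 had a higher one, where 44.6% of all genes differed in either direction. For AKR minus Hepa1-6, 32 were lower and 0 were higher, where 41.8% differed. The median difference over the 35 members was -0.67 and -0.69 in these pairs, which share the Hepa1-6 libraries.

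MC38 was compared in the same way. Its change was higher than that of LLC1 for 28 members and lower for 2 (40.4% of all genes differed), and higher than that of AKR for 29 and lower for 2 (46.8%). Against Hepa1-6 it was lower for 17 and higher for 4 (38.4%). Between LLC1 and AKR, both with most members lower in sgB2m, 14 members had the higher value in LLC1 and 11 had the lower (39.8%), with a median difference of 0.10. Chac1 was lower in LLC1 than in AKR by a log2 difference of -1.36 ± 0.10 (adjusted p = 2.22e-10) and Nupr1 by -1.0 ± 0.071 (adjusted p = 9.93e-11). Atf5 was lower in AKR, with a difference of 0.69 ± 0.12 for LLC1 minus AKR (adjusted p = 7.04e-05). For Trib3 the differences were -1.65 ± 0.072 in LLC1 minus Hepa1-6 (adjusted p = 1.95e-14) and -0.12 ± 0.072 in MC38 minus Hepa1-6 (adjusted p = 0.186). For Chac1 they were -3.02 ± 0.10 (adjusted p = 1.46e-16) and -1.41 ± 0.10 (adjusted p = 1.19e-10). For Ppp1r15a they were -2.98 ± 0.071 (adjusted p = 3.88e-19) and -2.14 ± 0.071 (adjusted p = 1.43e-16).

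Genes around the pathway were counted in the same fits. Of all tested genes, 21.8% were lower and 20.7% higher in LLC1, and 21.9% and 21.0% in AKR. The shares were 19.2% lower and 18.6% higher in Hepa1-6, and 15.8% and 15.9% in MC38. Of 22 other known ATF4 targets, 19 were lower and 2 higher in LLC1 sgB2m, 16 of 21 tested were lower and 2 higher in AKR, 19 were higher and 1 lower in Hepa1-6, and 6 were higher and 4 lower in MC38. Their medians were -0.45 in LLC1, -0.62 in AKR, 0.42 in Hepa1-6 and 0.00 in MC38. Gadd45a, a growth arrest gene, led in Hepa1-6 (1.83 ± 0.039, adjusted p = 1.71e-14), Vegfa, the angiogenic factor, in LLC1 (-1.17 ± 0.05, adjusted p = 3.05e-10), Herpud1, of ER-associated degradation, in AKR (-1.20 ± 0.037, adjusted p = 1.27e-08), and Aldh1l2, a mitochondrial folate enzyme, in MC38 (0.59 ± 0.061, adjusted p = 7.85e-05).

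ER chaperones and degradation genes, which the ATF6 and XBP1 arms of the unfolded protein response control, were counted together with Atf6 and Xbp1. Of 18 tested, 11 were lower and 2 higher in LLC1 sgB2m, 14 lower and 1 higher in AKR, 9 lower and 3 higher in Hepa1-6, and 4 lower and 4 higher in MC38. In MC38 that was 22.2% in each direction, near the 15.8% and 15.9% of all tested genes. The 2 called higher in LLC1 were Pdia3 (0.07 ± 0.027, adjusted p = 0.0486) and Dnajc3 (0.12 ± 0.044, adjusted p = 0.0432). Both calls ended without sgB2m replicate 1 (0.145 and 0.155) and with the replicate block (0.0796 and 0.0737). The LLC1 call of Pdia6 as lower (-0.07 ± 0.027, adjusted p = 0.0475) ended in the same settings (0.132 and 0.0608). Hspa5 (BiP) fell in LLC1 (-0.79 ± 0.025, adjusted p = 1.1e-11), Sel1l fell in AKR (-0.96 ± 0.044, adjusted p = 1.21e-07) and Atf6 rose in Hepa1-6 (0.60 ± 0.041, adjusted p = 1.55e-08). The other genes of the list that rose in Hepa1-6 were Xbp1 (0.59 ± 0.03, adjusted p = 3.74e-10) and Hspa5 (0.28 ± 0.018, adjusted p = 8.1e-09), and both fell in LLC1 (Xbp1 by 0.29) and AKR (Xbp1 by 0.56 and Hspa5 by 0.68). In MC38 Sdf2l1 fell (-0.71 ± 0.16, adjusted p = 0.00716, and 0.0529 without the intensity trend). Of 16 genes of eIF2, its kinases and exchange factor, a phosphatase subunit (Ppp1r15b) and regulators of the kinases (Gcn1, Impact and Oma1), 10 were lower and 1 higher in Hepa1-6, 7 lower and 1 higher in LLC1, 2 lower and 5 higher in AKR, and 6 lower and 3 higher in MC38. Eif2b4, a subunit of that exchange factor, rose in AKR (0.75 ± 0.074, adjusted p = 1.78e-05) and fell in Hepa1-6 (-0.38 ± 0.086, adjusted p = 0.00252). The gene higher in Hepa1-6 was Ppp1r15b (0.16 ± 0.041, adjusted p = 0.00623), and Impact and Oma1 were among the 5 higher in AKR. Eif2b3, another subunit of the exchange factor, fell in LLC1 (-0.48 ± 0.068, adjusted p = 4.81e-05). Impact, an inhibitor of the eIF2 kinase GCN2, rose in MC38 (0.45 ± 0.059, adjusted p = 0.000352).

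Synthetases that are not members were counted in the same way. Of 12 other cytosolic synthetases, 9 were lower and 3 higher in LLC1, 7 lower and 2 higher in AKR, 5 lower and 6 higher in Hepa1-6, and 7 lower and 2 higher in MC38. Of 17 mitochondrial synthetases, 6 were lower and 1 higher in LLC1, 6 lower and 1 higher in AKR, 6 lower and 2 higher in Hepa1-6, and 4 lower and 2 higher in MC38. In MC38 the mitochondrial shares, 23.5% lower and 11.8% higher, were near those of all tested genes (15.8% and 15.9%). Among the cytosolic ones the largest changes were those of Farsb in LLC1 (-0.67 ± 0.04, adjusted p = 9.51e-09), Lars in AKR (-0.55 ± 0.037, adjusted p = 1.31e-06), Farsa in Hepa1-6 (-0.33 ± 0.052, adjusted p = 0.000109) and Tars in MC38 (0.42 ± 0.039, adjusted p = 3.46e-05). Among the mitochondrial ones they were those of Yars2 in LLC1 (-0.56 ± 0.10, adjusted p = 0.00051), Wars2 in AKR (-0.66 ± 0.093, adjusted p = 0.0002), Cars2 in Hepa1-6 (-0.60 ± 0.14, adjusted p = 0.00251) and Lars2 in MC38 (-1.30 ± 0.25, adjusted p = 0.0033).

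**Figure D4:**
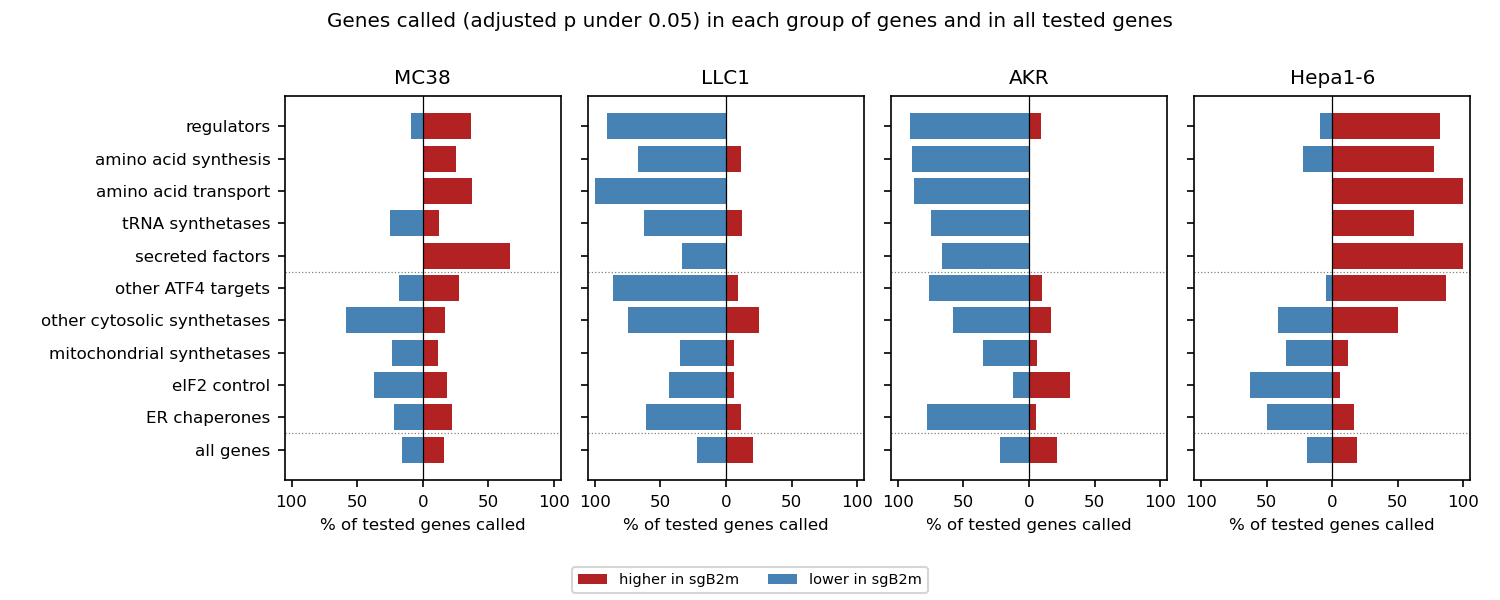
Share of tested genes called higher (red, right) or lower (blue, left) in sgB2m, in each role of the 40 members, in 5 groups of related genes and in all tested genes, for the 4 lines. In all genes the shares are 15.8% to 21.9% on each side, and the member roles reach 100% lower in LLC1 for transporters and 100% higher in Hepa1-6.

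Members with and without the motif had medians of the same sign in each line. In Hepa1-6 the median was 0.50 over the 13 tested members with it and 0.25 over the 17 whose windows lacked it. In LLC1 it was -0.48 over 14 and -0.34 over 17, in AKR -0.40 and -0.37 over the same numbers, and in MC38 0.11 over 13 and 0.10 over 17. Ppp1r15a, which rose most in Hepa1-6, had no match in its window, while Chac1 and Atf3 had.

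The lines also differed in their sgNT cells. In RPM of the sgNT libraries, AKR had the highest level of 30 of the 40 members, Hepa1-6 of 3, LLC1 of 4 and MC38 of 3. Over the 35 members tested in all lines AKR was highest for 27 (77.1%), where it was highest for 23.0% of all 12674 such genes. RPM divides the reads of a gene by the library's own total, with no other scaling between lines, and these levels were not tested. Trib3 stood at 326 ± 3.0 RPM in AKR, 175 ± 15.0 in Hepa1-6, 142 ± 2.66 in LLC1 and 29.3 ± 1.22 in MC38 (SD, n = 3). Slc7a11 stood at 621 ± 28.1, 343 ± 21.3, 143 ± 7.4 and 30.3 ± 5.28 RPM in the same order. Ppp1r15a stood at 446 ± 7.36 RPM in AKR, 114 ± 7.98 in LLC1, 51.0 ± 3.89 in MC38 and 45.1 ± 0.418 in Hepa1-6. For Atf4 the levels of MC38 (447 ± 34.7) and Hepa1-6 (451 ± 4.89) did not differ beyond their SD, that of LLC1 was lower (389 ± 2.17) and that of AKR was higher (746 ± 13.3).

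Levels were closer together across lines in sgB2m than in sgNT for 23 of 35 members (65.7%), by the ratio of the highest to the lowest line in RPM, against 51.7% of the 12671 genes with reads in every line and guide. The median ratio over the members was 2.22 in sgB2m and 2.79 in sgNT. For Atf3 it was 5.04 in sgB2m and 13.1 in sgNT, for Pycr1 1.36 and 5.62, and for Trib3 6.67 and 11.1. For Chac1 it was wider in sgB2m, at 9.02 in sgB2m and 6.69 in sgNT. These ratios use RPM, with no other scaling between lines, and are given as a description.

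**Figure D5:**
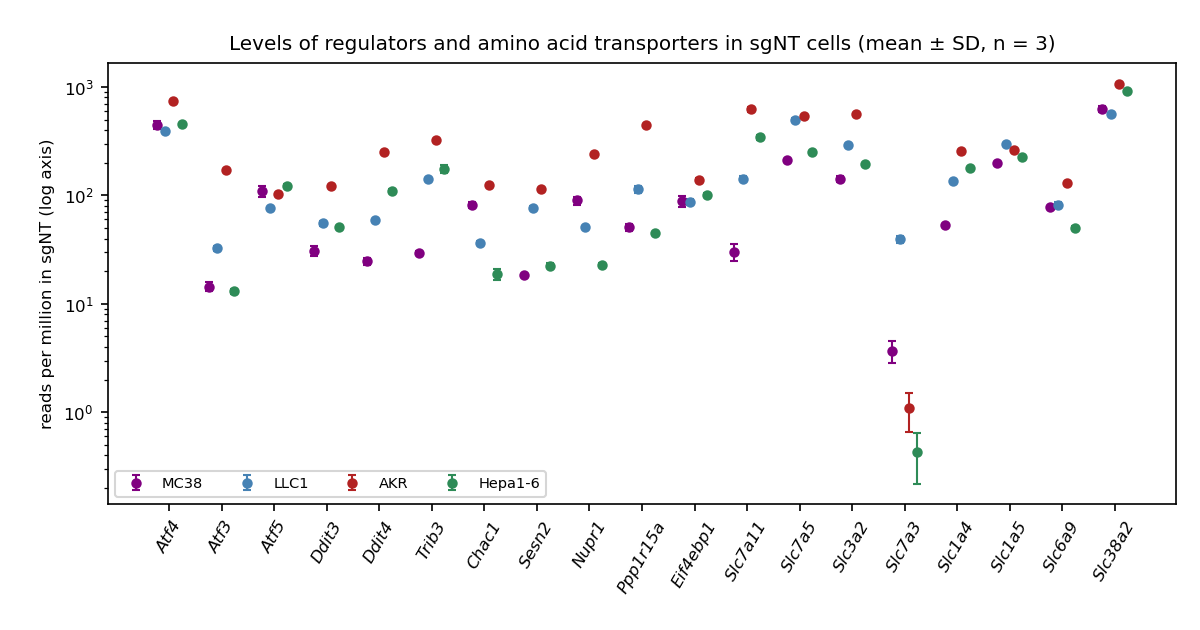
Levels of the 11 regulators and 8 amino acid transporters in the sgNT libraries of the 4 lines, in RPM on a log axis, as mean ± SD of 3 libraries. AKR (red) lies highest for most of these genes, and Trib3 ranges between 29.3 in MC38 and 326 in AKR.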

How the data were processed

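RNA of 24 libraries (4 lines, 2 guides, 3 libraries each) had been sequenced. Per the submitters' processing notes the authors used FastQC 0.11.5, STAR and DESeq2 with mm10, the versions of STAR and DESeq2, the gene counter, its annotation and its use of strand being not given in the sources used here. Per the labels, the libraries were strand-specific. The deposited values are log2 normalised counts, 1 table per line. After removal of a pseudocount of 1, 100% of 663330 values were whole multiples of 1 read within 0.05 reads, which gave the reads and size factors of each library. Adding 1 draws fold changes of weak genes toward 0.

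A gene entered a line's fit when 3 or more of its 6 libraries had a log2 value of 3.5 or above, and was tested with limma 3.58.1 in R 4.3.3 (moderated two-sided test with intensity trend, no covariate), with p-values adjusted by Benjamini-Hochberg over all genes tested in the line. Fold changes are on the log2(count + 1) scale, ± SE. The interaction used all 24 libraries. The tests were checked on simulated data. Alternatives were quantile normalisation, median centring, no filter or a minimum of 6, a pseudocount of 8, no trend, limma voom on recovered reads, each library left out, a replicate block and, chosen after seeing the data, removal of each chromosome's median.

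Named in every line are Atf4, Ddit3, Trib3, Chac1 and Asns, the 2 called members of each role with the largest change, and the top called gene of each other list. Other members are named after their values were seen. The members and lists were chosen with earlier results of these data known. Promoter windows came from RefSeq (GRCm38.p6), and overlapping genes from GENCODE on mm10. The promoter sites of 1 gene are not reported here.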

Additional observations from a re-analysis of the deposited data

Results flagged for a closer look

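The sgB2m minus sgNT change differed between the 4 lines for all 35 members tested in every line, by the limma interaction test with Benjamini-Hochberg adjustment. Of all 12674 genes, 69.8% also passed. The adjusted p was 7.16e-08 for Atf4, 1.17e-05 for Ddit3, 1.99e-15 for Trib3, 6.97e-16 for Chac1 and 2.64e-12 for Asns. Each of these 5 genes was lower in LLC1 sgB2m and AKR sgB2m than in sgNT, and Trib3 and Asns were called higher in MC38 sgB2m and Hepa1-6 sgB2m.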

How the results depend on the processing

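Of 114 calls of members in the 4 lines, 94 held under all 15 other settings and 20 ended under at least 1, and no called member changed direction. The 35 members with an interaction stayed 35 in 33 of 34 settings and were 37 without a filter. The LLC1 count of members called higher was 1 instead of 2 with the chromosome median removed, with median centring, without a filter, without the trend and with the replicate block, and 1 to 2 with a library left out. The AKR count called higher was 2 under quantile normalisation. Counts called in the 5 related lists moved beyond a fixed ratio in 20 of 240 comparisons with a library left out. They did so in 31 of 360 comparisons under the other settings. Of the uncalled members, 12 of 23 in MC38, 4 of 7 in LLC1, 3 of 5 in AKR and 1 of 4 in Hepa1-6 took the other sign under at least 1 setting. In MC38 they include Ddit3 (0.02 with the chromosome median removed) and Chac1 (0.05 with the chromosome median removed, 0.01 with median centring). With a library left out, MC38 Chac1 lay between -0.03 and 0.05. The cause was not tested. Deviations of same-numbered libraries from their group means had correlations of -0.028 to 0.051. In LLC1 each sgB2m library correlated best with the sgNT library of its own number (0.023, 0.051 and 0.028). In the other lines some did and some did not. Such correlations cannot settle whether the numbers pair samples, and the labels do not say, so the main fits used no pairing. With the replicate block 29 members were higher and 3 lower in Hepa1-6, 12 higher and 3 lower in MC38, 1 higher and 32 lower in AKR, and 1 higher and 30 lower in LLC1. Without the trend the counts were 27, 31, 24 and 9 for LLC1 lower, AKR lower, Hepa1-6 higher and MC38 higher. The median log2 fold change of members moved by at least its SD over sgB2m libraries in 7 of 24 comparisons with a library left out. It did so in 10 of 36 comparisons under the other settings, and no median changed sign. Genes with few reads (Cbs, Slc7a3, Fgf21, Stc2 and Gdf15 in some lines) were limited by depth.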
